A study of Mus musculus with 2 samples.

Results

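The cytosolic ribosomal protein genes were taken as the protein-coding genes of GENCODE M21 named Rpl or Rps with a number, with or without an a, x, y or l suffix, together with Rplp0, Rplp1, Rplp2 and Rpsa and without the ribosomal S6 kinase genes. This rule gave 81 of 21853 protein-coding genes on the assembled chromosomes. They comprised 43 genes of the large subunit, 30 of the small subunit, 3 of the stalk and 5 paralogs named with an l suffix. Accessible chromatin had been mapped by DNase-seq, in which the endonuclease DNase I cuts DNA where it is open, in mouse adipocytes differentiated in culture from 3T3-L1, a preadipocyte line, and taken at day 8. Both libraries, 2 biological replicates of 1 group by their labels, were of this kind, each combining more than 1 technical replicate and both under the same donor record, and no undifferentiated control was analysed here. The strain label named C57BL/6J, whereas 3T3-L1 is generally described as a line from Swiss mice, and none was assumed. Whether the replicates came from separate differentiations was not stated, so their spread may be technical.

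The cytosolic ribosome joins a small subunit, which decodes the messenger, with a large subunit, which forms the peptide bond, and nearly every ribosomal protein is present in a single copy per particle. Cells therefore make these proteins in matched amounts, and their genes are active in nearly all tissues. Their messengers mostly begin with a C followed by a run of pyrimidines, the terminal oligopyrimidine tract through which mTOR signalling controls their translation. In adipocytes, insulin is a strong activator of that signalling.

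Replicate 1 held 133695 peaks and replicate 2 held 216556, nearly all 150 bp wide and placed on a grid of 20 bp, and the sequencing depth was unknown. Each peak carried a value of the authors from 1 to 150, with a median of 45 in replicate 1 and 69 in replicate 2. No source used here gives the scale of this value, so it served only to rank the peaks of 1 list, as a percentile in which 100 is the strongest peak. All 7 adipocyte markers examined, Adipoq, Fabp4, Pparg, Plin1, Lpl, Cebpa and Slc2a4, had promoter peaks in both replicates, as did 54.9% of all protein-coding genes. Cebpa ranked lowest of the 7, with its strongest promoter peak at the percentiles 55.4 and 78.9. None of Ptprc, Pecam1, Alb, Myod1, Epcam and Nanog, markers of other cells, had one in either replicate. With 1 group there was no contrast to test, and the ribosomal protein genes are described beside all protein-coding genes, with no p-value.

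The sequences under the strongest promoter peaks show what was accessible at the top and at the bottom of the range. A promoter peak is a peak whose centre lay within 1000 bp of an annotated start of a protein-coding transcript, and the strongest is the one with the highest value. The reference sequence (GRCm38, from RefSeq) under the strongest replicate 1 peak is printed on the gene's strand, 5′ to 3′, for 2 of the members with the highest and 2 with the lowest mean percentile. It was ended at most 30 bases into the transcript. Capitals mark matches to the motif letters GGGCGG (SP/KLF) or CCGGAAG (ETS), or their reverse complements, among 9 motifs searched.
Rpl27 (chr11:101442196-101442327, plus strand): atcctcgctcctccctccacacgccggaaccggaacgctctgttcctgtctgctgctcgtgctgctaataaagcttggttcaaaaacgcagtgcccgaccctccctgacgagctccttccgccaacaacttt
Rpl35a (chr16:33056316-33056465, plus strand): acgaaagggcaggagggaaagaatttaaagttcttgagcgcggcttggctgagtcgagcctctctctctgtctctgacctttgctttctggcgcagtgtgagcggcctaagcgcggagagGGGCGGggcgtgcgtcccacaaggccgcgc
Rpl5 (chr5:107900436-107900531, plus strand): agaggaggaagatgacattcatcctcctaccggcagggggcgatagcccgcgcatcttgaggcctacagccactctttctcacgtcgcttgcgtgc
Rpl31 (chr1:39367736-39367871, plus strand): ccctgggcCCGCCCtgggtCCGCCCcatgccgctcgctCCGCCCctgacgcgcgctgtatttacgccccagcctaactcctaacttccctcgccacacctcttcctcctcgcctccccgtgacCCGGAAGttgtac
The Rpl27 and Rpl5 sequences held none of these letters, the Rpl35a sequence held GGGCGG at -17 bp from the start, and the Rpl31 sequence held GGGCGG on the opposite strand at -98, -87 and -68 bp. Both the strong and the weak members thus included one with and one without these letters.

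The promoters of the canonical ribosomal protein genes were accessible throughout. A promoter peak was found in both replicates at 78 of 81 members (96.3%), against 54.9% of all protein-coding genes. Replicate 1 had one at 78 members (55.2% of all genes) and replicate 2 at 79 (59.1%). Every gene of the large subunit, the small subunit and the stalk was among the 78, and the 3 exceptions were all paralogs.

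The strongest promoter peaks of the members also ranked high in their lists. Their median value was 110.5 in replicate 1, with a range of 78 to 129, and 140.5 in replicate 2, with a range of 117 to 149. The corresponding medians over the 12006 genes with a promoter peak in both replicates were 98 and 135. As percentiles, the medians of the members were 96.1 and 97.3, a mean of 96.7 ± 0.843 (SD, n = 2), and those of all such genes were 91.9 and 95.1, a mean of 93.5 ± 2.25 (SD, n = 2). The members' medians exceeded the others in each replicate, by more in replicate 1 than in replicate 2. Ranked among the promoter peaks of coding genes alone, the members stood at medians of 87.9 and 88.5, beside 76.9 and 80.4 for all genes.

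Most members stood in the upper part of both lists. In the top 10% of both lists stood 67 members (31.6% of all genes), which was 85.9% of the members with a promoter peak against 57.5% of all genes with one. In the top 5% of both stood 52 members (19.3% of all genes), or 66.7% against 35.1% of those with a promoter peak. Only 2 members, Rpl27 among them, were in the top 1% of both lists (2.82% of all genes), which was 2.56% of the members with a promoter peak against 5.13% of all genes with one.

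**Figure D1:**
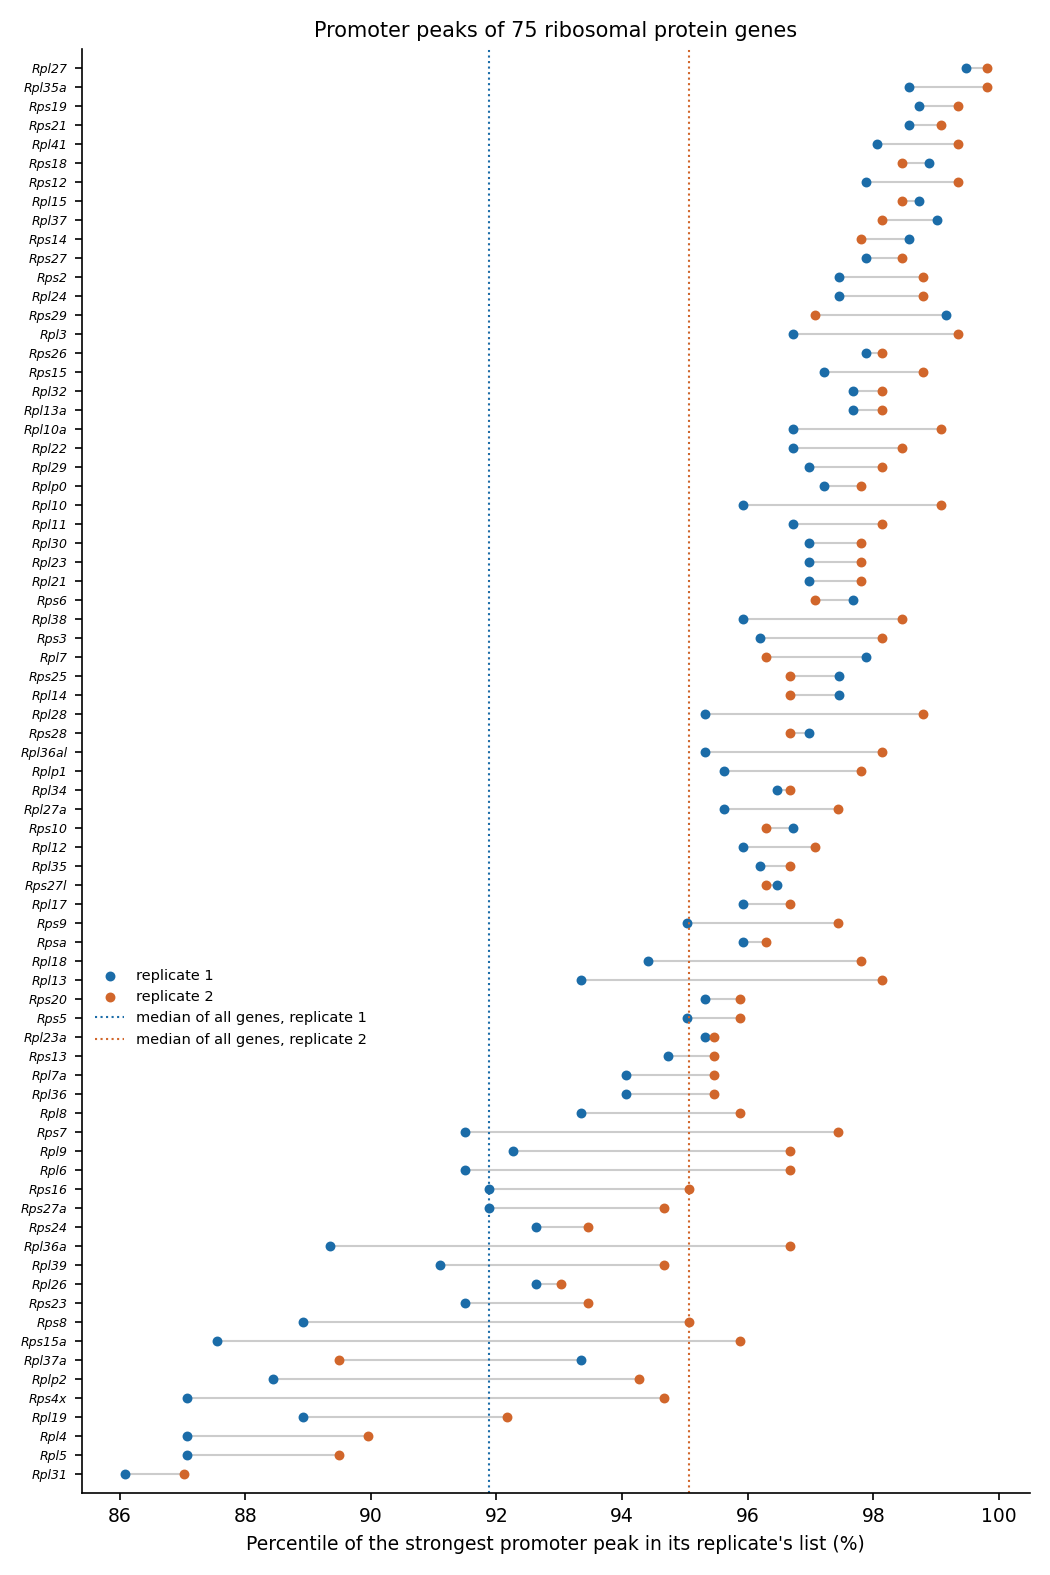
Percentile of the strongest promoter peak (x axis, %, truncated) of 75 of the 78 ribosomal protein genes with a promoter peak in both replicates (y axis, ordered by mean percentile), with replicate 1 in blue and replicate 2 in orange, joined by a grey line. Dotted lines are the medians of all 12006 genes with a promoter peak, 91.9 and 95.1; the members run from Rpl31 at 86.1 and 87.0 to Rpl27 at 99.5 and 99.8.

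Among large subunit genes, the median percentiles were 95.9 in replicate 1 and 97.8 in replicate 2. Rpl27 had the highest mean percentile of all members, with values of 129 and 149. Rpl35a, a gene mutated in some patients with Diamond-Blackfan anemia, had 122 and 149. Both genes stood above the percentile 98.5 in both lists. The lowest were also large subunit genes for the most part: Rpl31 had values of 85 and 117, Rpl5 87 and 122, Rpl4 87 and 123, and Rpl19 91 and 128. Rpl5 and Rpl11 encode the partners of 5S ribosomal RNA, the particle that binds Mdm2 when ribosome assembly fails. Their promoters differed in rank, with Rpl11 at 113 and 143, at the percentiles 96.7 and 98.1, and Rpl5 at 87.1 and 89.5. Rpl13a, which has a described role outside the ribosome in silencing inflammatory transcripts, had 117 and 143.

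Small subunit genes had median percentiles of 96.5 in replicate 1 and 96.9 in replicate 2, so the 2 subunits were in opposite order in the 2 replicates. Rps19, the gene most often mutated in Diamond-Blackfan anemia, was the highest with 123 and 147, ahead of Rps21 with 122 and 146. Both stood above the median of the members in each list. Other genes of that disease were lower and differed among themselves: Rps26 had 118 and 143, Rps10 113 and 138, Rps7 97 and 141, and Rps24 100 and 131. Rps6, the substrate of the S6 kinases, had 117 and 140. Rps27a, made as a fusion with ubiquitin, had 98 and 134, and Rpsa, also known as the laminin receptor, 110 and 138. Rps3, which has a described role in DNA repair, had 111 and 143.

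The stalk, which recruits the elongation factors, was uneven. Rplp0, its base, had values of 115 and 142, and Rplp1 had 109 and 142. Rplp2 was lower, with 90 and 133, at the percentiles 88.4 and 94.3. Of the 4 X-linked members, Rpl10 had 110 and 146 and Rpl39 had 96 and 134, while Rpl36a had 92 and 139 and Rps4x 87 and 134. In replicate 1, 3 of these 4 lay below the median percentile of all genes with a promoter peak, and 2 did in replicate 2.

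The replicates ordered the members only in part alike. Over the 78 members the Spearman correlation of the values between replicates was 0.753, and over all 12006 genes with a promoter peak it was 0.930. The points are genes of the same 2 libraries and not independent, and the members span a narrower range of values than all genes. Rps15a and Rps4x were among the members that differed most in percentile, and both ranked higher in replicate 2. Rps15a had 88 and 137, at the percentiles 87.6 and 95.9. Neighbours in the order of mean percentile differed by less than their replicates did for most members.

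Other gene families of basic cell function gave similar ranks. Mitochondrial ribosomal protein genes had promoter peaks in both replicates at 78 of 78, with a median mean percentile of 94.5. Translation initiation and elongation factor genes had them at 63 of 68 with 96.6, and proteasome subunit genes at 37 of 39 with 96.4. The ribosomal protein genes had 96.7, close to the last 2 lists. Among ribosomal genes that the naming rule leaves out, Rps27rt had no promoter peak in either replicate, while others had one in both: Rack1, a scaffold of the small subunit, had values of 108 and 140, Fau 122 and 140, and Rps3a1 110 and 135.

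The strongest peak mostly lay just upstream of the start. Offsets are counted along the gene from the representative start, the annotated start of the best supported transcript, with negative values upstream. The median offset was -28 bp in replicate 1 and -32.5 bp in replicate 2, a mean of -30.25 ± 3.18 (SD, n = 2), with quartiles of -73.75 and 6 bp and of -82.75 and -0.25 bp. Over all genes with a promoter peak the medians were -51 and -49 bp. This difference depended on the start used: from the nearest annotated start the medians were -41.5 and -36 bp for members and -51 and -48 bp for all genes. From RefSeq starts, known for 58 members and 9443 genes, they were -59 and -56.5 bp for members and -55 and -52 bp for all, so the members were then slightly the farther upstream. At 55 members both strongest peaks were centred within 100 bp of the start (25.1% of all genes), which was 70.5% of the members with a promoter peak against 45.8% of all such genes. At 53 members both lay upstream (36.7% of all genes) and at 17 both lay downstream (14%). Among genes with a promoter peak, 67.9% of members and 66.8% of all genes had both upstream, so the side of the start was shared with promoters in general.

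The representative start itself was covered by a promoter peak of both replicates at 43 members (24.1% of all genes). This was 55.1% of members with a promoter peak against 43.9% of all such genes. A gene with peaks only near another annotated start counts as uncovered. Related families lay on both sides of this share. The count was 64 of 78 among mitochondrial ribosomal protein genes, with median offsets of -23 and -24.5 bp, 23 of 37 among proteasome subunit genes with a promoter peak and 31 of 63 among translation factor genes with one. The strongest peaks of the replicates overlapped at 73 members (50.7% of all genes) and had the same position at 30 (19.9%). Among genes with a promoter peak the shares were 93.6% and 38.5% for members and 92.2% and 36.2% for all genes, so the replicates placed the members' peaks as they placed others. The median distance between the replicates' peak centres was 20 bp, 1 step of the grid.

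A few members had their strongest peak away from the start. The farthest upstream were Rpl10 at -462 bp in replicate 1 and -82 bp in replicate 2, Rpl19 at -214 and -234 bp, and Rpl4 at 15 and -365 bp. At Rpl10 and Rpl4 the replicates chose different peaks, and the Rpl4 peak of replicate 2 lay nearer to Zwilch, its divergent neighbour. The farthest downstream were Rps25 at 451 bp in both, nearer to Trappc4, Rpl35 at 394 and 414 bp, and Rpl18 at 2573 and 2553 bp. The Rpl18 peak lay near other annotated starts of that gene and nearer to Sphk2, the divergent neighbour. Annotated starts are not measured starts, and start sites were not mapped in these samples.

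Coverage had a narrow maximum just before the start and a lower, broad rise after it. It was counted around the representative start, whereas a promoter peak could lie near any annotated start. Genes with peaks only near another start lower these shares, and their part in the differences from all genes was not tested. The share of the 78 members covered by a peak rose to at most 78.2% in each replicate, first reached at -66 bp, and the maxima over all 12006 genes were 59.5% at -53 bp and 59.3% at -54 bp. After the maximum, read every 20 bp, the members' share in replicate 1 fell to 11.5% at 180 bp and rose again to 24.4% at 460 and 560 bp. In replicate 2 it fell to 14.1% at 100 bp and rose to 32.1% at 680 bp. The curves of all genes had the same course at lower levels, with 15.5% at 560 bp and 18.1% at 680 bp. Within 300 bp of the start, 76 of the 78 members had a peak in both replicates, against 84.3% of all genes with a promoter peak. Between 300 and 1000 bp downstream 45 had one in both (57.7% of the 78), against 46% of all. Between 300 and 1000 bp upstream 14 had one in both (17.9%), against 27.5%. In replicate 2 alone the upstream shares were 38.5% and 40.4%, so most of the upstream difference came from replicate 1, with 23.1% and 33.4%. Just before the start, over the last 200 bp, the mean coverage of members was the higher, at 50.7% against 42.9% in replicate 1 and 50.6% against 42.6% in replicate 2.

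**Figure D2:**
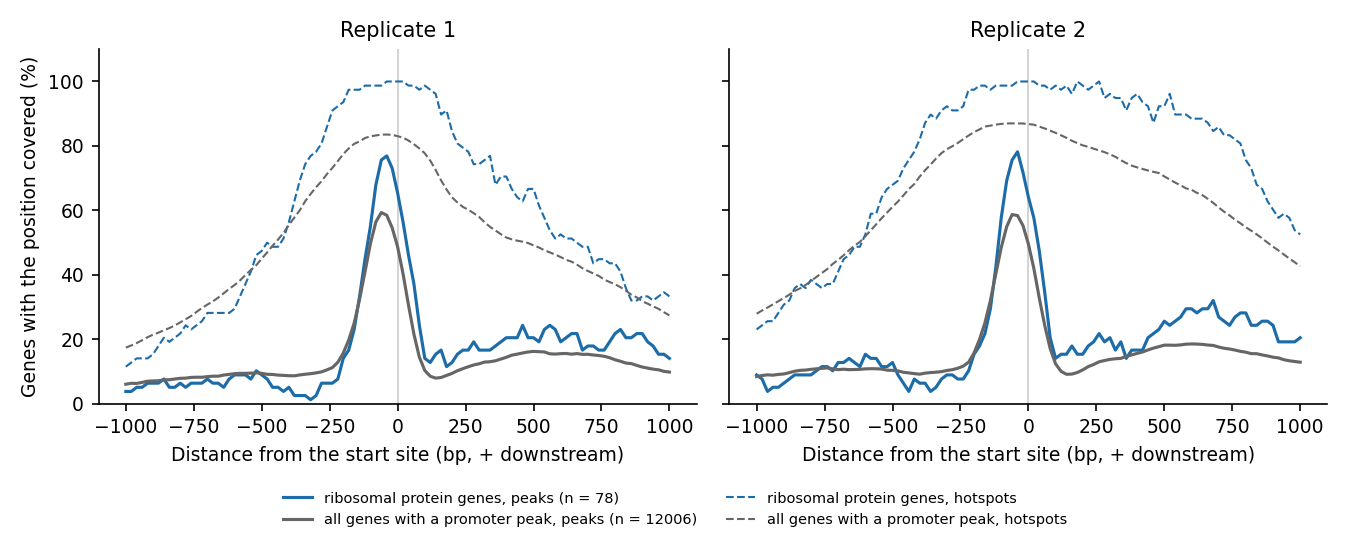
Share of genes (y axis, %) whose sequence at each distance from the representative start (x axis, bp, downstream positive) was covered by a peak (solid) or a hotspot (dashed), for the 78 ribosomal protein genes (blue) and all 12006 genes with a promoter peak (grey), in each replicate. Positions are drawn every 20 bp; at -40 bp the members' peak curve stands at 76.9% in replicate 1 and 78.2% in replicate 2, against 58.5% and 58.4% of all genes.

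Hotspots, the broader regions of raised cutting in which the authors' peaks lie, covered the representative start at all 78 members in both replicates. Among all genes with a promoter peak the shares were 83.0% and 86.8%. Genes with peaks only near another annotated start may count as uncovered here, and their part in the difference was not tested. The hotspot around the strongest peak reached the ceiling of the authors' −log10 q value, 100, in both replicates at 78 members (49.2% of all genes, 89.5% of those with a promoter peak). Median hotspot widths were 936.5 and 1230 bp for members and 885 and 1372 bp for all such genes, so members were the wider in replicate 1 and the narrower in replicate 2. At 4 members the hotspot had the same width in both replicates (0.595% of all genes, 1.08% of those with a promoter peak): Rps29 with 159 bp, Rpl5 with 305 bp, Rpl24 with 386 bp and Rpl32 with 1427 bp. The first 3 also had many words of sequence that occur elsewhere in the genome, as given next.

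Ribosomal protein genes have many processed pseudogenes, copies of the messenger inserted elsewhere, and reads that match several places may not be counted at any of them. No source used here says how such reads were treated. Within 500 bp of the start, a median of 4.70% of the 31-base words of a member occurred more than once in the genome. The median was 0% over 597 other genes with a promoter peak, taken as every 20th such gene, and the means were 7.23% and 2.60%. Downstream of the start the means were 9.30% and 2.17%, and upstream 5.15% and 3.04%, so within 500 bp repeated words were denser on the transcribed side. Farther out, from 500 to 1000 bp, the members' means were alike on both sides, at 12.8% upstream and 13.0% downstream. For the other genes they were 5.54% and 2.71%. Within 500 bp the share was 41.3% at Rps29, 30.7% at Rpl24, 15.4% at Rpl5 and 1.30% at Rpl32. At the lowest ranked members it was 16.2% at Rpl31 but 0% at Rpl4. The part of repeated sequence in the values was not tested.

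**Figure D3:**
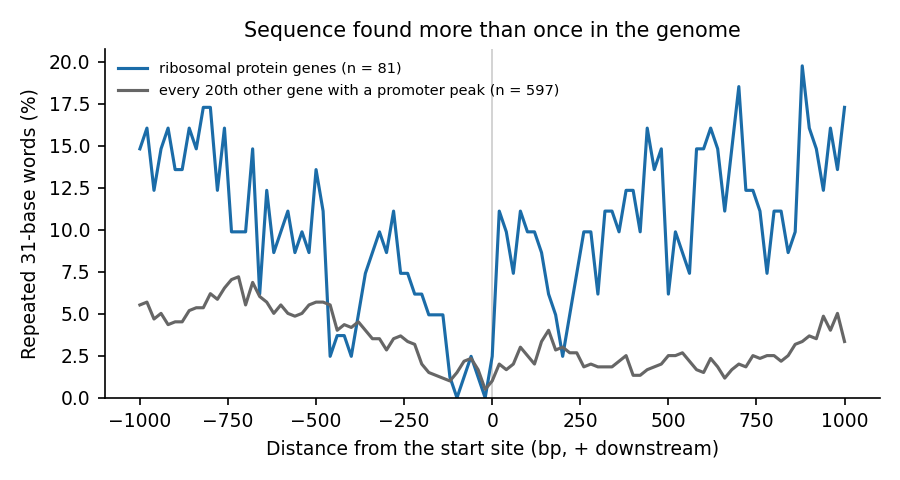
Share of genes (y axis, %) whose 31-base word at each distance from the start (x axis, bp, sampled every 20 bp) occurs more than once in the genome, for 81 ribosomal protein genes (blue) and 597 other genes with a promoter peak (grey). Over the bin from 0 to 200 bp downstream the means were 8.41% and 2.50%, and over the 200 bp upstream 2.39% and 1.57%.

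The pseudogenes themselves mostly had no peak. Of 294 annotated genes with a ribosomal protein name and a -ps suffix, 20 (6.80%) had a peak within 1000 bp of their 5′ end in both replicates. Peaks of both replicates overlapped the body of 5 (1.70%), Rpl9-ps8, Rps19-ps8, Rpsa-ps3, Rpl29-ps2 and Rpl19-ps3, against 74 of the 81 members (91.4%). The 5 are named because they are the whole count. The shares of pseudogenes and members are not like for like, because the bodies differ in length and a member's body begins at its own promoter. Reads from a pseudogene may also match its parent gene or other copies, and repeated words were not counted at pseudogenes. A pseudogene without a peak is therefore not shown to be closed.

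Members had few peaks each. The median number of promoter peaks was 2 in replicate 1 and 3 in replicate 2, as over all genes with a promoter peak. More than 1 was found in both replicates at 61 members (36.3% of all genes). Among genes with a promoter peak this was 78.2% of members and 66.0% of all genes. A replicate held 5 or more at 14 members (7.93%; 17.9% of members and 14.2% of all genes among those with a promoter peak). Rpl32 had 6 and 6, Rpl13 6 and 5, and Rps14 5 and 5. Rpl13a had 2 in replicate 1 and 8 in replicate 2. The counts thus varied between replicates as well as between members.

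Distal peaks were no more numerous around the members than around other genes. Peaks shared by both replicates, more than 1000 bp from any coding start, were assigned to the nearest coding start within 100 kb. The median was 2 per member and 2 over all protein-coding genes, with means of 2.37 and 3.58, and 3 was the median of genes with a promoter peak. None was assigned to 22 members (30.3% of all genes) and 5 or more to 13 (27%). Among genes with a promoter peak, 5 or more were assigned to 16.7% of members and 35.7% of all genes. Rpl31 had 12, Rpl34 11 and Rpl14 9. By comparison Pparg, among the adipocyte markers, had 26. Rpl31, lowest of the members in percentile, thus had the most distal peaks of them.

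Some members share their promoter region with a neighbour. A coding gene on the opposite strand started within 1000 bp upstream of 11 members (8.48% of all genes), or 14.1% of those with a promoter peak against 14.6% of all such genes. The closest pairs were Rps28 and Ndufa7, a subunit of respiratory complex I, at 10 bp, Rps27 and Rab13 at 44 bp, and Rpl9 and Lias, the lipoic acid synthase, at 53 bp. The strongest peak lay nearer to another coding gene at 8 members in replicate 1 (5.4% of all genes) and at 9 in replicate 2 (5.52%). Among genes with a promoter peak the shares were 10.3% of members and 9.80% of all genes in replicate 1, and 11.5% and 9.87% in replicate 2. Such a peak cannot be assigned to 1 gene of the pair. Members were scattered over the genome with 14 on chromosome 7, and 4 pairs had starts within 100 kb, among them Rps2 and Rpl3l at 7.76 kb.

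The tract at the start is shown for members in which the reference holds it exactly at the representative start. A tract was called where a C within 10 bp of the start began at least 5 pyrimidines on the gene strand. Each line holds 20 bases before the start and 20 from it, in GRCm38, with the tract in capitals, so that the first capital is the start base.
Rpl36 (chr17:56613396-56613435, plus strand): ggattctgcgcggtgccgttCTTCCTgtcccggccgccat
Rpl37 (chr15:5116625-5116664, plus strand): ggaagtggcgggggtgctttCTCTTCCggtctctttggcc
Rpl37a (chr1:72711270-72711309, plus strand): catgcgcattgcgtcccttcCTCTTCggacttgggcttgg
Rpl4 (chr9:64173355-64173394, plus strand): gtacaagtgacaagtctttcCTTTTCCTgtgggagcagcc
Rps21 (chr2:180257357-180257396, plus strand): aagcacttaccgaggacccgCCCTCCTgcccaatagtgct
The tracts of these 5 members run from 6 to 8 bases, and 8 members in all had one exactly at the start. The longest of the 8 are not printed, those of Rps24 with 17 bases and Rpl32 with 14. For comparison, 4 members with high ranks and no tract within 20 bp of the annotated start are printed in the same way, with no capitals.
Rpl35a (chr16:33056433-33056472, plus strand): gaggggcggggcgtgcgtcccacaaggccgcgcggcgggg
Rpl41 (chr10:128549286-128549325, minus strand): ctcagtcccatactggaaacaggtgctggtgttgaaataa
Rpl15 (chr14:18271048-18271087, minus strand): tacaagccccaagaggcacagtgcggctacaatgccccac
Rpl24 (chr16:55966255-55966294, plus strand): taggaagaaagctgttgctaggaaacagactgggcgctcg
A tract was present at 37 members (45.7%), against 30.8% of all protein-coding genes and 30.7% of genes with a promoter peak. A tract of at least 7 bases was present at 25 (30.9%), against 12.2% of all genes. It was found within 20 bp at 57 members (70.4%; 49.1% of all genes), and at any annotated start at 58 (71.6%; 50% of all genes). The count thus depended on which annotated base was taken as the start. Members with and without the tract had median mean percentiles of 96.4 and 97.1. Their peaks lay at different distances, with median offsets of -66 and -56 bp with the tract and of -4 and -15 bp without it, each from the same annotated start that defined the tract.

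Sequence patterns in the promoter were counted from 250 bp before to 50 bp after the start, on both strands. The motif TCTCGCG, which the factor ZBTB33 binds and which often forms part of a palindrome, was the one with the largest ratio of shares among the 9 examined. Sites are printed for 6 members with a site in the strongest peak of both replicates, in GRCm38 on the gene strand, with TCTCGCG and its reverse complement CGCGAGA in capitals.
Rps6 (chr4:86857397-86857426, minus strand): ccggctgtTCTCGCGAGAacttagagcgct
Rps28 (chr17:33824545-33824574, minus strand): accgcgtgcggTCTCGCGAGAgcgaaagtg
Rpl10a (chr17:28328526-28328555, plus strand): cgggcaacTCTCGCGAGAacgcgggctcta
Rpl26 (chr11:68901539-68901568, plus strand): cTCTCGCGAGATCTCGCGgcaacttacaga
Rps15a (chr7:118116195-118116224, minus strand): tgaccatgaagTCTCGCGatagcgcttccg
Rpl23a (chr11:78183595-78183624, minus strand): atataagctatCGCGAGActtttatgagcc
In Rps6, Rps28, Rpl10a and Rpl26 the site included a palindrome, TCTCG joined to its own reverse complement. TCTCGCG was present at 16 members (19.8%), against 3.43% of all protein-coding genes and 5.35% of genes with a promoter peak. These held 24 sites, 21 of them within 100 bp of the start and 18 (at 11 members) inside the strongest peak of both replicates. Members with the motif had a median mean percentile of 96.4 and those without it 96.9. A match is a description of letters and not a bound site, and no factor was mapped in these samples.

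The other motifs were more or less frequent than in accessible promoters, some by a few percentage points only, and the differences were not tested. CCGGAAG, the core of ETS factors such as GABP, was present at 25 members (30.9%; 11.2% of all genes, 17.9% of genes with a promoter peak). ATGGCGG, of YY1, was present at 13 (16.0%; 5.08% and 8.01%), and TGACGT, of CREB and ATF, at 13 (16.0%; 8.81% and 12.1%). At least 1 of the ETS, YY1 and ZBTB33 letters stood in 43 members (53.1%; 17.7% and 27.8%). GCGCATG, of NRF1, stood at 9 (11.1%; 4.96% and 6.96%), as did the E-box CACGTG of MYC and USF (7.71% and 9.85%). GGGCGG, of SP and KLF factors, was present at 42 (51.9%; 45.4% and 62.1%) and CCAAT at 26 (32.1%; 38.6% and 39.2%), both below the share in accessible promoters. TATAAA, the letters of the TATA box, stood at 9 (11.1%; 12.6% and 7.48%). Its 10 sites were counted on both strands and lay from -137 to 37 bp, with a median of 10 bp. The count therefore does not show a TATA box in its usual place before the start. The median GC content of the window was 55.8% for the members with a promoter peak and 60.3% for all such genes, with 7 and 6.67 CpG per 100 bp.

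**Figure D4:**
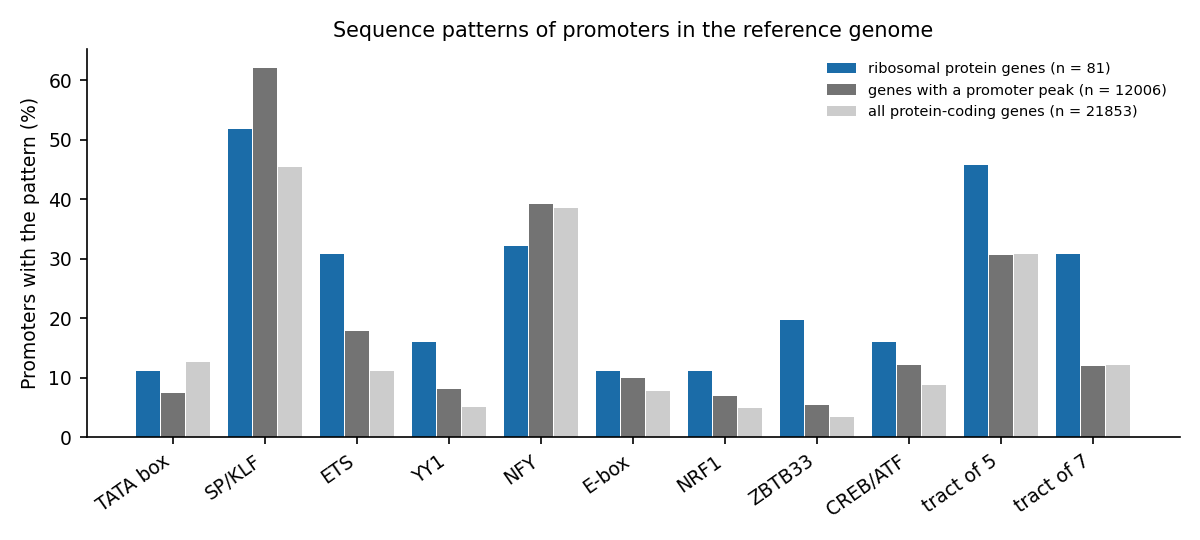
Share of promoters (y axis, %) that hold each pattern (x axis, 9 motifs searched on both strands of the 300 bp window and pyrimidine tracts of at least 5 or 7 bases at the start), for 81 ribosomal protein genes (blue), 12006 genes with a promoter peak (dark grey) and 21853 protein-coding genes (light grey). The widest ratio is at ZBTB33, with 19.8% against 5.35% and 3.43%, while SP/KLF and NFY are less frequent in the members than in genes with a promoter peak.

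The 5 paralogs fell on both sides. Rps27l and Rpl36al had promoter peaks of the canonical rank, with values of 112 and 138 and of 108 and 143. Rpl10l, a copy of Rpl10 without introns known from the testis, and Rpl39l, likewise known from male germ cells, had no promoter peak in either replicate. Rpl3l, the form of Rpl3 found in heart and skeletal muscle, had 1 peak in replicate 2 alone, with a value of 57 at the percentile 34.5, and it lay near an internal annotated start, 4770 bp downstream of the representative one. The X-linked or autosomal counterparts Rpl10, Rpl39 and Rpl3 all had promoter peaks in both, Rpl3 with values of 113 and 147. The promoters of the 3 pairs are printed from 100 bp before to 19 bp after the start base in GRCm38, with capitals on the ETS, NRF1 and SP/KLF letters (CCGGAAG; for NRF1 GCGCATG; for SP/KLF GGGCGG) or their reverse complements.
Rpl10l (chr12:66284382-66284501, minus strand): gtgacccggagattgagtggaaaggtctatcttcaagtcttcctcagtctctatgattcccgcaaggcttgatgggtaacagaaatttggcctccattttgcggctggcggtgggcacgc
Rpl10 (chrX:74270712-74270831, plus strand): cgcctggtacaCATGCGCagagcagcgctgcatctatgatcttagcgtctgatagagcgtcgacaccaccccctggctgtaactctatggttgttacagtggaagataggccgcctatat
Rpl39l (chr16:10170128-10170247, plus strand): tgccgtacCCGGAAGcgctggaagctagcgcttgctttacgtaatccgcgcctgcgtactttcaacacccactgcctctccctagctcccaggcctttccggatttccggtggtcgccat
Rpl39 (chrX:37085383-37085502, minus strand): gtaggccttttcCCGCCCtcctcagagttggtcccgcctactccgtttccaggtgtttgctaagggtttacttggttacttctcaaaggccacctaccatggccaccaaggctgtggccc
Rpl3l (chr17:24727720-24727839, plus strand): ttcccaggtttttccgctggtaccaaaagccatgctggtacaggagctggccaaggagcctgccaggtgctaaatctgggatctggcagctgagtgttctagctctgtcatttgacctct
Rpl3 (chr15:80083387-80083506, minus strand): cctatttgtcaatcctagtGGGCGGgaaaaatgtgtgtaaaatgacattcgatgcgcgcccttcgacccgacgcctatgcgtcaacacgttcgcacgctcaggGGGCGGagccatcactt
Rpl39l held CCGGAAG at -92 bp and Rpl3 GGGCGG at -81 and 3 bp. On the opposite strand Rpl10 held GCGCATG at -89 bp and Rpl39 GGGCGG at -88 bp. CpG density over the 300 bp window was 0.667 per 100 bp at Rpl3l and 7 at Rpl3, and 4.33 at Rpl10l and 6 at Rpl10. At the third pair it ran the other way, with 5.67 at Rpl39l and 2.33 at Rpl39. Within 500 bp of its start, 26.3% of the 31-base words of Rpl10l were repeated in the genome, against 0% at Rpl39l and 0.599% at Rpl3l.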

How the data were processed

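Peaks and hotspots were used as deposited, in mm10 coordinates per the labels, with GENCODE M21 and the RefSeq GRCm38 sequence. The authors deposited a signal value for each peak and the −log10 of a q-value for each hotspot, per library; no source used here gives the caller, the aligner or the scaling of the signal. Identical duplicate lines (20 and 33) were counted once, and 337 and 603 peaks off the assembled chromosomes were left out. Per-sample columns from outside the series numbered 0. Depth is unknown, so no interval could be attached to a value.

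Members, comparison lists, motifs and alternatives were chosen with earlier results of these data known. Named genes followed a rule: members lacking a promoter peak in a replicate, the 5 highest and 5 lowest by mean percentile, the 3 farthest upstream and downstream, the 3 with the largest difference between replicates, the 3 with most promoter peaks, and genes fixed by role (Rps4l of that list matched no gene). Results for a few genes named by it are left out of the text and of the plot of percentiles and are not reported here. Others named complete a count, or were chosen after their values were seen (Rpl13a for its peak counts, and Rpl34 and Rpl14 for distal peaks, and Rps27rt for its lack of peaks). Starts were those of protein-coding transcripts. Shared peaks overlapped by at least 1 bp. Repeated words were counted over the whole genome, on both strands. Windows, start definitions, peak choice, tract settings, rank basis, distal reach and single replicates were varied. The procedures were tested on simulated data. Python 3.11.15, pandas 2.3.3, numpy 2.4.6, pysam 0.24.0, numba 0.67.0, samtools 1.23.1 and matplotlib 3.10.9 were used.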

Additional observations from a re-analysis of the deposited data

How the results depend on the processing

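Of 47 alternatives to 8 results, 38 left the count within 1.5 times or the median within the spread between replicates, and none changed the sign of a member value. The order of members and all genes in offset turned when RefSeq starts were used. A promoter window of 2500 bp gave a median of 4 promoter peaks per member. Ranking among promoter peaks alone gave a median percentile of 88.6. The median offset was -42.5 bp from the nearest start, -52.5 bp from the RefSeq start (58 members) and -34 bp for the peak nearest to the start. The pyrimidine tract was counted at 57 members within 20 bp, at 58 at any start and at 25 with 7 bases. With 1 library left, the medians ranged from -32.5 to -28 bp for the offset and from 2 to 4 for distal peaks, the latter being 4 in replicate 2 alone. The counts ranged from 78 to 79 members with a promoter peak and from 50 to 51 with the start inside a peak, against 43 in both, and the median percentile from 96.1 to 97.3 and the number of promoter peaks from 2 to 3. The peak width was 150 bp throughout and could not move, because nearly all peaks had that width. Keeping only the stronger 50% of peaks likewise left the strongest peak of each of the 78 members in place. These alternatives are among the 38 but could show no dependence of the width or of the strongest peaks. The count of members with a promoter peak could rise to 81 at most. Wider windows, more starts or a single replicate therefore could not move it by 1.5 times. Medians with 1 library left were judged by the spread of the same 2 libraries, which is a weak check. Counting from all transcripts' starts, and leaving out members nearer to another gene (69 remained), were chosen after seeing the data and gave -28 bp each. No paired analysis was possible because there is 1 group.

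The 2 libraries differed in the number of peaks, and no depth was available to separate missing peaks from closed chromatin.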
